A study of Mus musculus with 2 samples.

Results

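Genes of the heat shock proteins and of the DnaJ cochaperones were compared between hippocampal RNA of mice fed astaxanthin and hippocampal RNA of control mice. The family was defined by name alone: a gene belonged to it when its symbol began with Dnaja, Dnajb, Dnajc, Hspa, Hspb, Hspd, Hspe, Hsph or Hsp90 and held a digit. This rule uses no measured value. It found 68 genes with a probe on the array, out of 16533 genes with a symbol and a probe. Of the 68, 63 were measured, that is, had a probe that the scanner put well above background in each RNA on each array, out of 13319 genes with a symbol that were measured and 23604 genes and transcripts in all. The rule also takes in Hspbp1 and Hspbap1, which encode binding proteins and not heat shock proteins, and these are given apart.

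The astaxanthin (ASX) group received, for 4 weeks after 1 week of acclimatization, powdered chow with 0.5% by weight of a powder that holds 2% astaxanthin, a red carotenoid of the alga Haematococcus pluvialis. The control group received chow with 0% of it and placebo powder. Both groups were male C57BL/6J mice, an inbred strain, 11 weeks old and 26 to 28 g in weight, housed singly. Total RNA took a different dye for each diet, and 2 two-colour Agilent expression arrays each received both RNAs: ASX RNA carried Cy5 on array 1 and Cy3 on array 2. Each array is titled with 4 mice and no label says how their RNA was combined, so the arrays were treated as a dye swap of 1 pair of RNA samples. This leaves 1 replicate and no test of the diet. Every value below compares these 2 RNA samples, an SD between arrays is taken as technical on that basis, and the number of arrays limits the precision. Of 16 genes of hippocampal granule and pyramidal neurons, 14 had a named probe. These 14, with Prox1, Zbtb20 and Neurod6 among them, were measured in the same sense. So were 13319 of the 16533 genes with a symbol and a probe, and no other tissue was compared. The 14 therefore do not test the tissue label, and their median log2 ratio was 0.037.

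Heat shock proteins are molecular chaperones. Hsp70 binds unfolded stretches of other proteins and releases them in a cycle driven by ATP; DnaJ proteins, also called Hsp40, hand it the substrates and start ATP hydrolysis through their J domain, and Hsp110 proteins reload it with ATP. Hsp90 finishes the folding of kinases and receptors, Hsp60 with Hsp10 folds proteins inside mitochondria, and small heat shock proteins hold unfolded proteins without ATP. Heat shock factor 1 induces the cytosolic members under stress through heat shock elements in their promoters, while the unfolded protein response induces those of the endoplasmic reticulum. In neurons, some members have a constitutive part in the synaptic vesicle cycle.

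The family lay close to equal levels in the 2 RNAs. No gene of the 63 reached 1.5-fold in one direction on both arrays; among all measured genes and transcripts 0.0635% were higher and 0.0212% lower in the ASX RNA by this rule. At a limit of 1.2-fold on each array, 0 members were higher in the ASX RNA (0.233% of genes with a symbol and 1.44% of all genes and transcripts were) and 1, Hspa4, was lower (0.330% and 0.314%). The median log2 ratio, ASX over control, was -0.023 over the 63 members, against -0.019 for genes with a symbol and -0.004 for all 23604. In the mean of the arrays, 98.4% of members were within 1.2-fold, as 98.6% of genes with a symbol were. Member means ran from -0.28 for Hspa4 to 0.18 for Hsp90ab1.

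**Figure D1:**
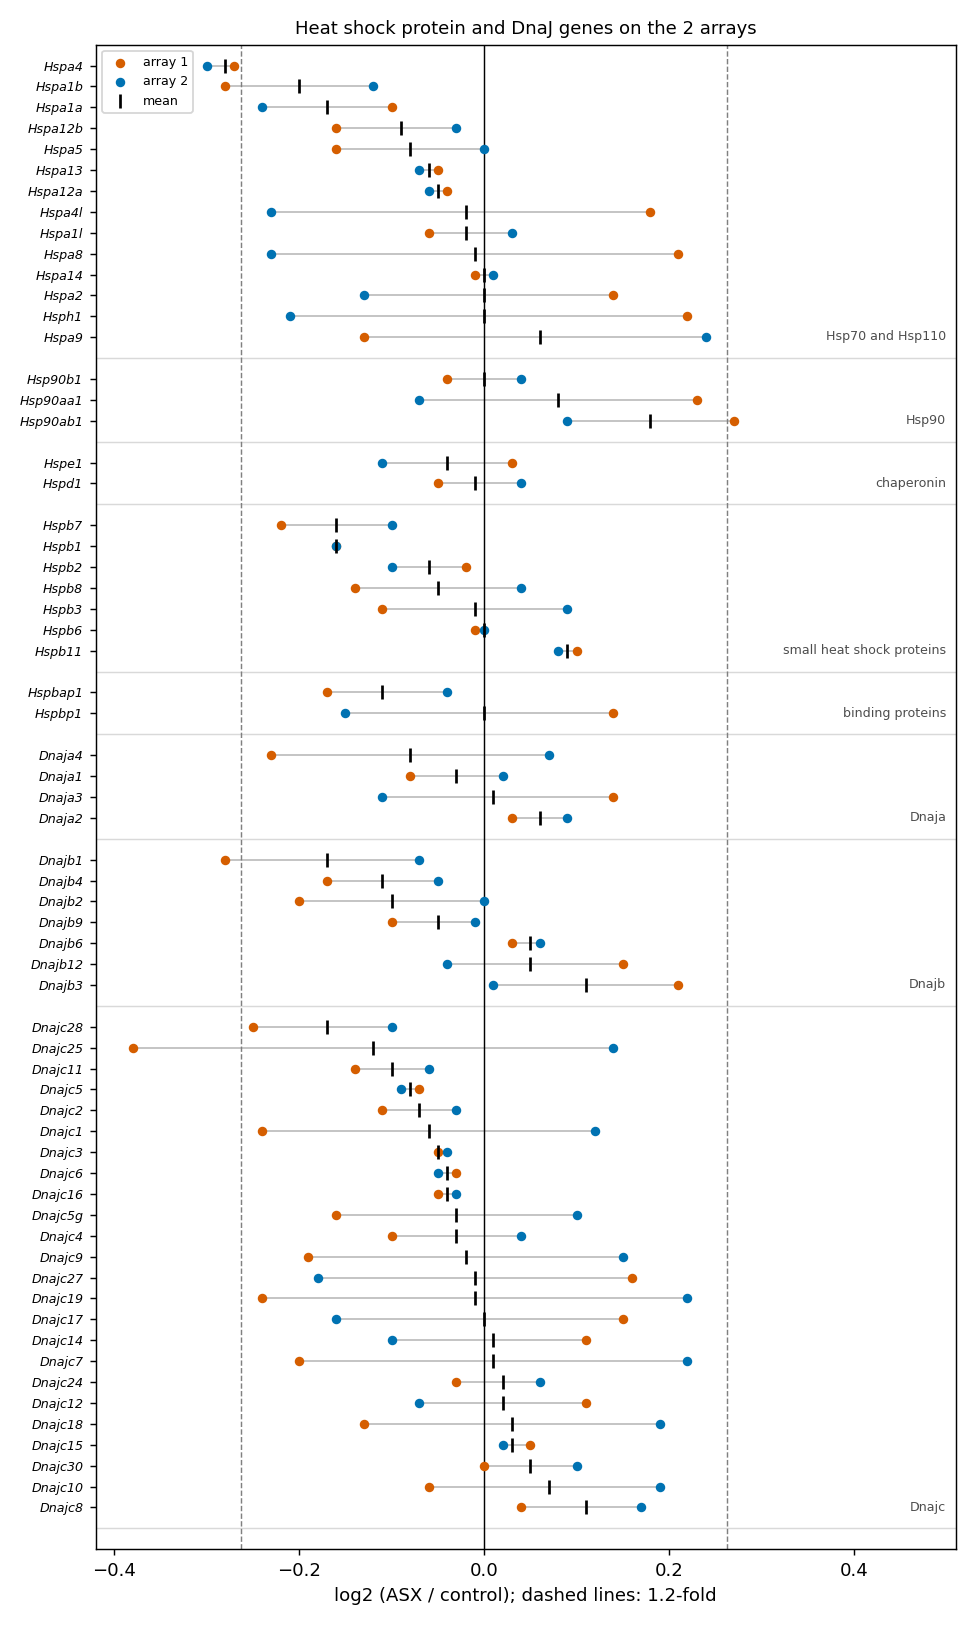
Log2 ratio (ASX over control) of the 63 measured genes on array 1 and array 2, grouped by role, with the mean as a black bar; dashed lines mark 1.2-fold. Hspa4 is past the lower line on both arrays, and no gene is past the upper line on both.

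Of the 63 members, 22 were below 0 on both arrays (34.9%, against 26.4% of genes with a symbol and 23.0% of all genes and transcripts) and 8 above 0 on both (12.7%, against 14.3% and 22.2%). The other 33 changed sign between the arrays: 13 were above 0 on array 1 alone and 20 on array 2 alone. The difference between the arrays divided by 2, in which a dye effect and other differences between the 2 arrays cannot be told apart, had a median size of 0.072 over the members, larger than the median size of 0.052 of the mean ratio. The same 2 values over genes with a symbol were 0.078 and 0.055. Across the 63 members, which share both arrays and are not replicates, the ratios of array 1 and array 2 had a Pearson correlation of -0.30, and -0.25 over genes with a symbol. The labels state the dyes, so the direction of each ratio is kept.

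**Figure D2:**
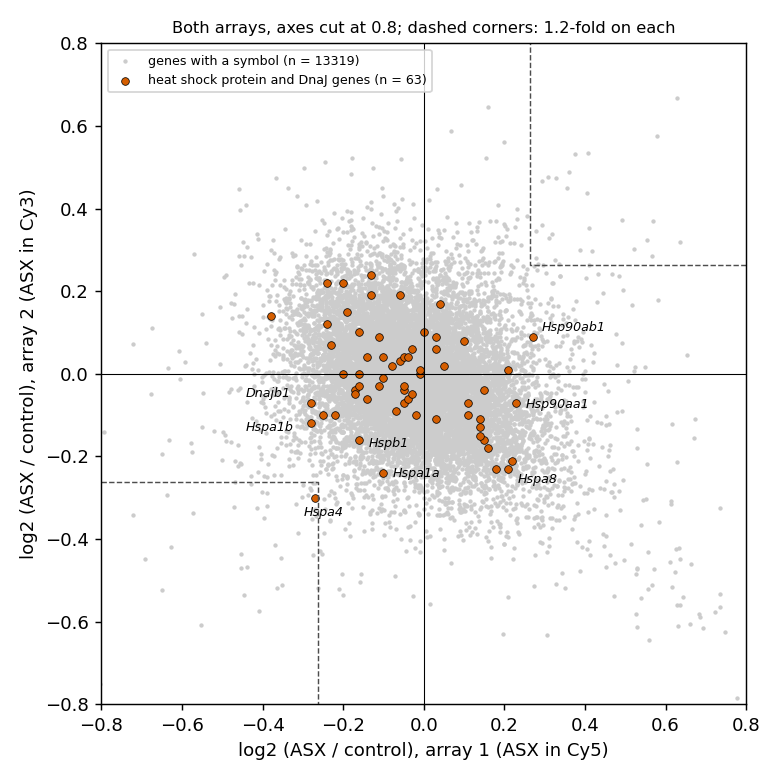
Log2 ratio on array 1 (horizontal) and array 2 (vertical) for genes with a symbol in grey and the heat shock protein and DnaJ genes in orange; the axes end at 0.8 and leave a few grey genes out. The members lie inside the grey cloud, with Hspa4 in the corner that marks 1.2-fold lower on each array.

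In the Hsp70 and Hsp110 group 14 of 14 genes were measured. The median was -0.037, with 7 genes below 0 on both arrays and 0 above. The stress-inducible cytosolic Hsp70 is encoded by Hspa1a and Hspa1b, a pair of near-identical neighbours on chromosome 17. The Hspa1a probe had log2 signals of 12.57 and 12.00 in the ASX RNA on arrays 1 and 2, against 12.67 and 12.24 in the control RNA. Its log2 ratios were -0.10 and -0.24, a mean ratio of 0.890. The Hspa1b probe had 9.52 and 9.12 in the ASX RNA, against 9.80 and 9.25 in the control RNA. Its log2 ratios were -0.28 and -0.12, a mean ratio of 0.871. The ASX signal was below the control signal on each array for both genes, with an SD between arrays of 0.10 and 0.11. Each gene had another measured probe. That of Hspa1a had -0.23 and -0.10, and that of Hspa1b had -0.05 and -0.26, so 4 of 4 probes were below 0 on both arrays. Since the genes are so alike, a probe may read both, and the pair cannot be taken as separate measurements.

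The promoters of this pair are shown because they hold GAANNTTC, a match to 2 units of the heat shock element. This string was in 7.86% of all promoters searched. The stretches shown lie before the transcription start, so they do not bear on whether a probe reads both transcripts. In the RefSeq table of GRCm38.p6, the 300-base promoters (250 bases before the transcription start and 50 after it) of Hspa1a and Hspa1b were identical at 296 of 300 positions. The stretches below come from chr17:34972223-34972290 (Hspa1a) and chr17:34959305-34959372 (Hspa1b), both on the minus strand, and capitals mark GAANNTTC, the element of 2 units.
Hspa1a: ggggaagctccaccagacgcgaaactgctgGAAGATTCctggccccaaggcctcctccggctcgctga
Hspa1b: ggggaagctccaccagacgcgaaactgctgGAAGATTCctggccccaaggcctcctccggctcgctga

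Hspa4 encodes an Hsp110-type exchange factor for Hsp70. Its brightest probe had log2 signals of 13.13 and 12.63 in the ASX RNA, against 13.40 and 12.93 in the control RNA. The log2 ratios were -0.27 and -0.30, a mean ratio of 0.821. These values were nearly equal on the arrays, but the gene's other measured probes did not share them. The second probe had -0.11 and 0.08, and the third had 0.21 and 0.28, with the ASX signal above the control signal on each array. With the mean over the 3 probes Hspa4 had -0.02 and was no longer past 1.2-fold, nor was it with the scanner's own log ratios. Among the 32 members with several measured probes, Hspa4 had the widest spread between probes, and its call rests on 1 of them. The related exchange factors Hsph1 and Hspa4l changed sign between the arrays, Hsph1 with 0.22 and -0.21 and Hspa4l with 0.18 and -0.23.

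Hspa8, the constitutive Hsp70 that also strips clathrin from vesicles, was the brightest member. On array 1 it had a log2 signal of 16.64 in the ASX RNA, against 16.43 in the control RNA, and its mean log2 brightness was 16.32. The log2 ratios were 0.21 and -0.23, with a mean of -0.01, and a dimmer Hspa8 probe had -0.12 and 0.10, also a mean of -0.01. The 2 probes differed between the arrays in opposite ways and met in the mean. Hspa2, an Hsp70 best known from spermatogenesis, had 0.14 and -0.13. Hspa5, the Hsp70 of the endoplasmic reticulum known as BiP, had -0.16 and 0.00, a mean ratio of 0.946. Hspa9, the mitochondrial Hsp70, had -0.13 and 0.24, and its other probe 0.25 and -0.06. Hspa12a, Hspa12b and Hspa13, more distant relatives, were below 0 on both arrays at their brightest probes, with means between -0.09 and -0.05. Other probes changed sign, those of Hspa12a with 0.02 and -0.23, and 0.03 and -0.10, and that of Hspa13 with -0.16 and 0.07. Hspa14, of the ribosome-associated complex, and Hspa1l had means of 0.00 and -0.02.

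All 3 Hsp90 genes were measured, and they had the highest median of the role groups, 0.080, from 0.230 on array 1 and 0.043 on array 2. Hsp90ab1, the constitutive cytosolic form, had log2 signals of 15.94 and 15.28 in the ASX RNA, against 15.68 and 15.19 in the control RNA. Its log2 ratios were 0.27 and 0.09, a mean ratio of 1.13, with the ASX signal above the control signal on both arrays. Its other probe had 0.05 and -0.05, a mean of 0.00. Hsp90aa1, the inducible cytosolic form, had 0.23 and -0.07, a mean ratio of 1.06 from its single probe. Hsp90b1, the form of the endoplasmic reticulum also called Grp94, had -0.04 and 0.04, and its other probe -0.10 and 0.04. With median centring in place of loess, the Hsp90 median was -0.165, below 0. That scaling put the median of all genes and transcripts at -0.104 and that of genes with a symbol at -0.159. Relative to the median of genes with a symbol, Hsp90ab1 stood at 0.10 and Hsp90aa1 at -0.01 under it, against 0.20 and 0.10 as reported.

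Hspd1 and Hspe1, the mitochondrial Hsp60 and its lid Hsp10, differed little. Hspd1 had -0.05 and 0.04, with -0.17 and 0.15 at its other probe, and Hspe1 had 0.03 and -0.11.

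All 7 genes that begin with Hspb and a digit were measured, with a median of -0.048. Of these, 3 were below 0 on both arrays (42.9%) and 1 above (14.3%), against 26.4% and 14.3% of genes with a symbol. Hspb1, the inducible small heat shock protein, had log2 signals of 11.58 and 10.95 in the ASX RNA, against 11.74 and 11.10 in the control RNA. Its ratio was -0.16 on each array, a mean ratio of 0.896, from a single probe. Its promoter stretch is shown for its pair of matches to GAANNTTC, in capitals, from chr5:135887772-135887859 on the plus strand of GRCm38.p6.
Hspb1: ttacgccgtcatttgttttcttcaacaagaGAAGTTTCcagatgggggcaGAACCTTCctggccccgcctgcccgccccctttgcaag

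Hspb7, known from heart muscle, had -0.22 and -0.10 at a dim probe, with mean log2 brightness of 6.83. Its other probe, with 10 spots and not well above background, had 0.02 and -0.11. Hspb2, a muscle form, had -0.02 and -0.10. Hspb8, which works with Bag3 in clearing misfolded proteins, had -0.14 and 0.04, and Hspb3 and Hspb6 had means of -0.01 and 0.00. Hspb11, which despite its name encodes a protein of intraflagellar transport, had 0.10 and 0.08, above 0 on both arrays. Of the binding proteins, Hspbap1 had -0.17 and -0.04, and Hspbp1, an exchange factor for Hsp70, 0.14 and -0.15.

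Among the DnaJ genes, the 4 of class A had a median of -0.008. Dnaja1, a heat-inducible partner of cytosolic Hsp70, had -0.08 and 0.02, and its 2 other probes had means of -0.07 and -0.06. Dnaja2 had 0.03 and 0.09. Dnaja3, the mitochondrial form, had 0.14 and -0.11, and the same values at its other probe. Dnaja4 had -0.23 and 0.07, and its dimmer probe 0.02 and 0.10.

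Of class B, 7 of the 10 genes with a probe were measured, with a median of -0.053. Of these, 4 were below 0 on both arrays (57.1%) and 2 above (28.6%), against 26.4% and 14.3% of genes with a symbol. Dnajb1, the main heat-inducible Hsp40, had log2 signals of 14.30 and 14.04 in the ASX RNA, against 14.59 and 14.11 in the control RNA. Its log2 ratios were -0.28 and -0.07, a mean ratio of 0.887, and its other probe had -0.24 and -0.22. Both probes were therefore below 0 on both arrays. Dnajb4 had -0.17 and -0.05, with -0.11 and 0.09 at its other probe, and Dnajb2, a form enriched in neurons, had -0.20 and 0.00. Dnajb9, an endoplasmic reticulum form, had -0.10 and -0.01 at its brightest probe, and its 2 other probes had means of 0.03 and 0.11. Dnajb6, which keeps polyglutamine proteins from aggregating, had 0.03 and 0.06. Dnajb3, a form known from mouse testis, had 0.21 and 0.01. Dnajb12, a membrane form of the endoplasmic reticulum, had 0.15 and -0.04.

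Of class C, 24 of 26 genes were measured. The median was -0.017, from -0.063 on array 1 and 0.029 on array 2, with 7 genes below 0 on both arrays and 3 above. Dnajc5, the cysteine string protein of synaptic vesicles, had log2 signals of 14.95 and 14.31 in the ASX RNA, against 15.02 and 14.39 in the control RNA. Its log2 ratios were -0.07 and -0.09, a mean ratio of 0.947, with 0.01 and -0.24 at its dimmer probe. Dnajc6, the auxilin that recruits Hspa8 to clathrin coats, had -0.03 and -0.05. Dnajc3, an inhibitor of the eIF2 alpha kinases that sits in the endoplasmic reticulum, had -0.05 and -0.04, and its 4 measured probes had means from -0.11 to -0.04. Dnajc28 had -0.25 and -0.10 at a dim probe, with -0.28 and 0.08 at another. Dnajc8, a splicing-associated protein, had 0.04 and 0.17, and 0.00 and 0.14 at its other probe. Dnajc25 had the widest gap between arrays, with -0.38 and 0.14. Dnajc10, a disulphide reductase of the endoplasmic reticulum, had -0.06 and 0.19 at its brightest probe. Its dimmest probe had 0.50 and 0.33, a mean of 0.41, while the other 3 had means between 0.03 and 0.07. The remaining class C genes had means from -0.10 for Dnajc11, of the mitochondrial inner membrane organising complex, to 0.05 for Dnajc30. Among them Dnajc2, a ribosome-associated J protein, Dnajc11 and Dnajc16 were below 0 on both arrays, Dnajc15 and Dnajc30 above, and the others changed sign between the arrays. These others were Dnajc1, Dnajc4, Dnajc5g, Dnajc7, Dnajc9, Dnajc12, Dnajc14, Dnajc17, Dnajc18, Dnajc19, Dnajc24 and Dnajc27. A dimmer probe of Dnajc2 (-0.23 and 0.12) and one of Dnajc16 (0.15 and -0.08) changed sign as well.

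The 5 members with a probe that did not meet the brightness filter were Dnajb7, Dnajb8, Dnajb13, Dnajc22 and Dnajc5b. Dnajb13, a protein of the radial spokes of motile cilia, was well above background in the control RNA on both arrays and in the ASX RNA on array 1 alone. No fold is given for it. Dnajc5b was above background for the ASX RNA on both arrays and for the control RNA on array 1 alone. Probes of Dnajb7, Dnajb8 and Dnajc22 were well above background in neither RNA. A further 6 protein-coding genes that fit the rule had no probe matched by accession and were not analysed here: Dnajb5, Dnajb11, Dnajb14, Dnajc13, Dnajc21 and Hspb9.

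Where a gene had several probes, these gave a check on the ratios that is independent of the choice of the brightest. Of the 63 genes, 32 had at least 2 measured probes. The brightest and the next probe were on the same side of 0 in the mean of the arrays in 24 of the 32 (75.0%), as in 64.5% of the 4549 genes with a symbol and 2 measured probes. Across these genes the brightest and the next probe had a Pearson correlation of 0.60, against 0.43 over the 4549; probes of a gene share both RNA samples and arrays. In 15 of the 32 all probes were below 0 in the mean, and in 7 all were above. The median absolute difference between brightest and next was 0.04 and the largest 0.27.

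**Figure D3:**
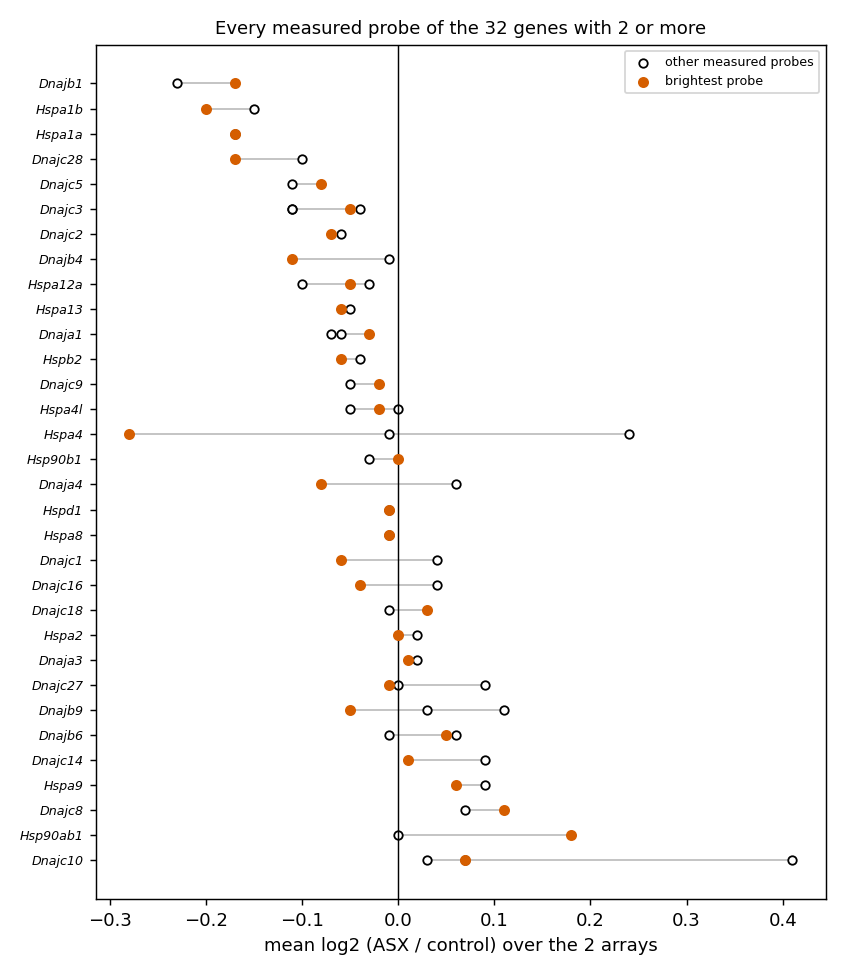
Mean log2 ratio of every measured probe of the 32 genes with 2 or more, the brightest probe filled and the others open. The probes of Dnajb1, Hspa1a and Hspa1b lie below 0 together, those of Hspa4 spread from -0.28 to 0.24, and 1 probe of Dnajc10 stands at 0.41.

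By location and regulation, the family split into groups with small medians. The 13 members listed as heat-inducible targets of heat shock factor 1 include Hspa8 and Hsp90ab1, called constitutive above. These 13 had a median of -0.029, from -0.049 on array 1 and -0.110 on array 2. Of these, 5, namely Hspa1a, Hspa1b, Hspb1, Dnajb1 and Dnajb4, were below 0 on both arrays, Hsp90ab1 was the 1 gene above 0 on both, and the other 7 changed sign between arrays. The 5 were 38.5% of the list, close to the 34.0% of the 50 other measured members, against 26.4% of genes with a symbol. None of the 13 members was past 1.2-fold on both arrays. Hsf1, the gene of heat shock factor 1, had 0.03 and -0.22, and Bag3, another of its targets, -0.24 and 0.02. The 8 measured genes of the endoplasmic reticulum had a median of -0.050 with 4 below 0 on both arrays, and the 8 mitochondrial ones a median of 0.004 with 1 below and 2 above.

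**Figure D4:**
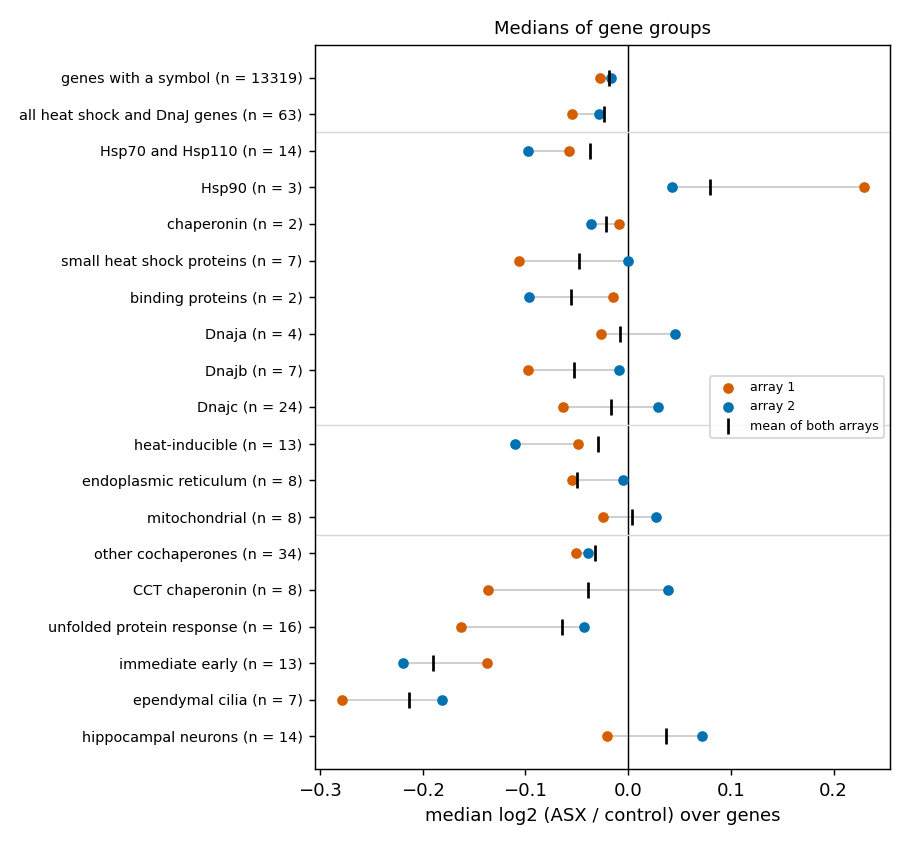
Median log2 ratio of gene groups on array 1, on array 2 and for the mean of the arrays, with the number of genes in each. The role groups of the family lie within 0.1 of 0 in the mean, and the immediate early and ciliary lists at -0.190 and -0.213.

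Genes that work with the family were compared next. Of 34 measured cochaperones and regulators, 0 were past 1.2-fold on both arrays in either direction, 12 were below 0 on both and 3 above, and the median was -0.032. Ahsa2, an activator of Hsp90, had the lowest mean, -0.17, and the crystallin Cryaa had -0.15. Fkbp5, a glucocorticoid-induced partner of Hsp90, had the highest, from 0.04 and 0.24. The 8 subunits of the cytosolic chaperonin CCT had a median of -0.039, with 2 below 0 on both arrays and 0 above. Of 16 measured genes of the unfolded protein response, 1 was at least 1.2-fold lower on both arrays, 7 were below 0 on both (43.8%) and 0 above, and the median was -0.064. Of genes with a symbol, 0.330% were lower by this rule, 26.4% were below 0 on both arrays and 14.3% above. Creld2, induced by endoplasmic reticulum stress, was the 1 that passed, with -0.28 on each array. Xbp1, whose product drives this response, had -0.29 and -0.21, and Sdf2l1 -0.15 and -0.19. Among members of the family in the endoplasmic reticulum, Hspa5, Hsp90b1 and Dnajc3 had means of -0.08, 0.00 and -0.05, while Dnajb9, a target of Xbp1, and Dnajc10 had -0.05 and 0.07, with other probes of these genes up to 0.11 and 0.41.

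The promoters of Hspa5, Hsp90b1 and Dnajc3 are shown because these 3 were the measured members whose promoter held the endoplasmic reticulum stress element (CCAAT, 9 bases of any kind, CCACG), marked in capitals on either strand. The stretches are chr2:34771995-34772073, plus strand (Hspa5), chr10:86705503-86705686, minus strand (Hsp90b1), and chr14:118937797-118937875, plus strand (Dnajc3), of GRCm38.p6.
Hspa5: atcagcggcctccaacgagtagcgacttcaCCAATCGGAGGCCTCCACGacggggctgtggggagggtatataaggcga
Hsp90b1: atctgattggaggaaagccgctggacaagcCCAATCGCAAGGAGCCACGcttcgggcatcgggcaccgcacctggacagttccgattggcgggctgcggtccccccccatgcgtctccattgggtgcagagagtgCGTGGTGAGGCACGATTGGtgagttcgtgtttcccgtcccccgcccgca
Dnajc3: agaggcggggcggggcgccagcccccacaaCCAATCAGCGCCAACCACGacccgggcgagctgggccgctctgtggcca

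A promoter was found for 51 of the 63 measured members. The stress element of the endoplasmic reticulum was in 3 of the 51 (5.88%), against 0.119% of the 32851 promoters of the table, both strands searched. Members were counted by gene, while the table was counted by promoter and includes genes that were not measured, so the shares differ in unit. The element GAANNTTC was in 14 of the 51 (27.5%), against 7.86% of all, and a longer element, GAANNTTC followed by NNGAA, which contains it, in 4 (Dnajb6, Hspd1, Hspe1 and Hsph1; 7.84%), against 0.603%. The 14 members with GAANNTTC had a median log2 ratio of -0.03, and the 37 without it -0.02. Of the 14, 3, namely Hspa1a, Hspa1b and Hspb1, were below 0 on both arrays. The share below 0 on both was 34.9% over all 63 members and 26.4% over genes with a symbol. The 63 include the 14 and also members with no promoter found, so these shares do not compare members with and without the element. The reverse order of its units, TTCNNGAA, was not searched by itself. Whether the element goes with direction was not tested, and Hspa1a and Hspa1b are not separate measurements. A match of letters does not show that a factor binds there.

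Lists of other genes were measured in the same RNAs. For comparison, 26.4% of genes with a symbol were below 0 on both arrays and 14.3% above. At 1.2-fold on each array, 0.330% were lower and 0.233% higher. Immediate early genes, transcribed within minutes of neuronal activity, had a median of -0.190, with 12 of 13 measured genes below 0 on both arrays, 3 of them (Egr2, Fos and Egr1) at least 1.2-fold lower on each. Ependymal cilia genes had a median of -0.213, with 6 of 7 below 0 on both arrays and Dynlrb2 at -0.29 on each. Meningeal genes had a median of 0.194, with 7 of 11 above 0 on both arrays and 0 below. Endothelial and mural genes, of cells in which Hspb1 is also found, had a median of -0.033 in the mean of the arrays, and of 0.086 and 0.076 on arrays 1 and 2. Of these 11 genes, 4 were above 0 on both arrays and 2 below. Means ran from -0.20 for Cldn5, of endothelial tight junctions, to 0.27 for Myh11, of smooth muscle, with Pdgfrb at 0.23 and Tagln at 0.20. The medians were -0.061 for oligodendrocyte, -0.042 for astrocyte, -0.035 for microglial and 0.026 for general neuronal genes. Of 5 measured blood genes, 2 were at least 1.2-fold higher and 2 at least 1.2-fold lower on both arrays, from -0.53 for Hbb-bt to 1.27 for S100a9. The part of these lists in the ratios of Hspa1a, Hspa1b, Dnajb1 and Hspb1 was not tested. In whole tissue, fewer cells of a type and less RNA per cell cannot be told apart.

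Hspa1a, Hspa1b, Dnajb1 and Hspb1, set together here after their values were seen, were below the median gene under each processing setting tried. Relative to the median of genes with a symbol, over 9 settings with both arrays, Hspa1a stood between -0.22 and -0.15, Hspa1b between -0.19 and -0.16, Dnajb1 between -0.25 and -0.15, and Hspb1 between -0.19 and -0.14. On single arrays the values nearest to the median gene were -0.07 for Hspa1a on array 1, -0.11 for Hspa1b on array 2 and -0.05 for Dnajb1 on array 2, and Hspb1 had -0.14 on each. Hsp90ab1 stood between 0.10 and 0.20. Hspa8 was above the median gene in 6 of the 9 and below it in 3. Other named members were also below the median gene in all 9, namely Hspa5, Hspe1, Hspb8, Dnaja1, Dnajc3, Dnajc5, Dnajc6, Dnajc28 and Hspbap1. Dnajc28 stood between -0.18 and -0.03 and Hspa5 between -0.14 and -0.05. On each array alone, Dnajc3, Dnajc5, Dnajc6, Dnajc28 and Hspbap1 were below it too. Standing below the median gene in each setting was thus not particular to the genes set together. The settings start from the same 2 arrays and are not separate measurements; the scanner's log ratios and the series value table hold the same values.

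**Figure D5:**
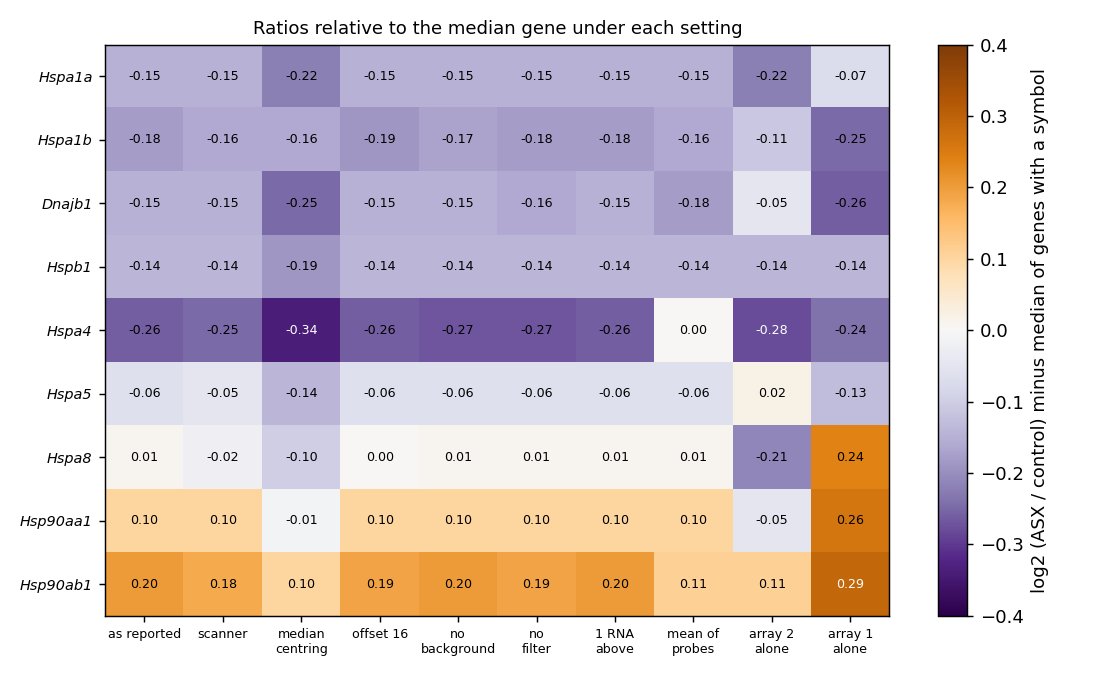
Log2 ratio (ASX over control) minus the median of genes with a symbol for 9 genes (rows) under 10 processing settings (columns). Hspa1a, Hspa1b, Dnajb1 and Hspb1 are negative and Hsp90ab1 positive in every column, while Hspa4 is at 0.00 when its probes are averaged.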

How the data were processed

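Agilent Feature Extraction 11.0.1.1 read both scans, per the file headers. The intensity columns used are the deposited median pixel signals and local backgrounds, not normalized. The deposited log10 ratios, in the scanner files and the series value table, are Cy5 over Cy3 after the software's own background subtraction and dye normalization, and are not turned for the dye swap. Here, limma 3.58.1 (R 4.3.3) corrected background by normexp with an offset of 50 and normalized within arrays by loess, the 1639 control features having weight 0. Control features and 3 outlier spots were left out, no spot for a mouse transcript was saturated, and ratios were turned to log2(ASX / control). Of 41171 probes, 23372 matched a symbol through a RefSeq table of GRCm38.p6 by unversioned accession and 17799 matched none. Of all probes, 73.1% passed the scanner's brightness flag in each RNA and array. On arrays 1 and 2, 77.8% and 76.7% of spots passed in the ASX RNA, against 78.2% and 75.8% in the control RNA. A gene took its brightest such probe. Background correction and loess normalization were tested with known ratios put into the ASX channel of 200 probes of the real arrays. Members, lists and named genes (fixed core members, those past 1.2-fold on both arrays, the 4 highest and 4 lowest means and the largest mean of each role group) were chosen with earlier results of these data known; genes beyond that rule were named to account for every role.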

Additional observations from a re-analysis of the deposited data

How the results depend on the processing

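Counts and medians were recomputed with the scanner's log ratios, the series value table, median centring in place of loess, a normexp offset of 16, no background correction, no brightness filter, a filter that asks for 1 RNA above background, the mean over a gene's probes, and each array alone. No member was at least 1.5-fold apart in either direction under any of these. The count at least 1.2-fold lower, 1 as reported, was 5 with median centring (Dnajb1, Dnajb2, Dnajb4, Hspa4 and Hspb1), where 3.60% of genes with a symbol were, against 0.330% as reported. It was 0 with the value table, 0 with the scanner's log ratios, where Hspa4 had -0.27, and 0 when probes were averaged, where Hspa4 had -0.02; the cause of the shift with median centring was not tested. With median centring 2 members were above 0 on both arrays and 46 below (8.92% and 61.4% of genes with a symbol). The members' median was then -0.208, and that of genes with a symbol was -0.159. When probes were averaged, 12 members were above 0 on both arrays and 15 below (15.4% and 27.8% of genes with a symbol). On single arrays the members' median ran from -0.055 to -0.028, 21 to 28 members were above 0 and 35 to 42 below, 1 to 4 were at least 1.2-fold lower and 0 to 1 higher, where 3.99% to 5.32% of genes with a symbol were lower and 2.50% to 4.11% higher. The dim Hspb7 had -0.26 at the lowest setting and -0.05 at the highest; relative to the median of genes with a symbol it ran from -0.24 to 0.10, above that median with median centring. A slide block was not run since both arrays lie on 1 slide. No paired analysis was possible because the 2 arrays hold the same pair of RNA samples and form 1 replicate.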
